A study of Mus musculus with 2 samples.

Results

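The oxidative phosphorylation genes described here are 96 of the 32285 genes counted in this single-cell study. They were chosen by name, from the gene families that code the subunits of complexes I, III, IV and V (mt-Nd, mt-Co, mt-Cytb, mt-Atp, Ndufa, Ndufb, Ndufc, Ndufs, Ndufv, Uqcr, Cox4 to Cox8 and Atp5), with at least 100 UMIs over all barcodes. Of 103 genes with such a name, 7 had fewer UMIs. Cox6b2 was just outside the limit with 87 UMIs, and Cox6a2 was just inside it with 180. The members are 13 genes coded by the mitochondrial genome and 83 coded in the nucleus: 7 core and 30 accessory subunits of complex I, 8 complex I assembly factors caught by the prefix Ndufa, 8 subunits of complex III, 13 of complex IV and 17 of complex V. Among the 30, Ndufb1-ps is counted by its name, although GENCODE M21 labels it a long noncoding RNA of a bidirectional promoter.

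Cells came from mice heterozygous for Cx3cr1CreERT2(Litt), an allele in which a tamoxifen-inducible Cre recombinase is placed under the control of the microglial and macrophage gene Cx3cr1. The mice were 12 weeks old and received tamoxifen (TAM) for 4 weeks, or oil. Cells sorted from perfused whole brains as CD11b+ CD45+ Ly6G- CD206- carried 1 of 10 hashtags (antibody-borne barcodes), TAM1 to TAM5 and Oil1 to Oil5, and were captured in 1 droplet pool. The allele is shared by all 10 hashtags, so the comparison is of TAM with oil on the Cre background; a TAM-treated group without Cre was not analysed here. Whether a hashtag is 1 mouse is not stated in the labels, so each p-value reflects variation among hashtags, part of which could be technical.

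Mitochondria make ATP by passing electrons along complexes I, III and IV of the inner membrane, which pump protons, and by letting the protons back through complex V, the ATP synthase. All of these complexes except complex II mix proteins translated inside the organelle from mitochondrial DNA with proteins coded in the nucleus and imported, so the 2 genomes must supply parts of the same machines. In microglia, the resident macrophages of the brain, oxidative metabolism supports surveillance and is known to shift towards glycolysis upon inflammatory activation.

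The mitochondrial genome is transcribed as long precursors, and some of its genes remain joined in the mature RNA. The overlaps of mt-Atp8 with mt-Atp6 (chrM:7897-7999) and of mt-Nd4l with mt-Nd4 (chrM:10137-10203), both on the plus strand of GRCm38 with GENCODE M21 gene bounds, are printed because they bear on how UMIs divide between the mitochondrial members. Capitals mark the 43 and 7 bases that the paired genes share.
mt-Atp8/mt-Atp6 junction: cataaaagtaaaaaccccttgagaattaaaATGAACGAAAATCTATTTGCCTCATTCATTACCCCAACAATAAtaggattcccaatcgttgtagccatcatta
mt-Nd4l/mt-Nd4 junction: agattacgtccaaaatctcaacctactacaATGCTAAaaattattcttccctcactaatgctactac
In each pair the upstream gene had fewer UMIs in a library that tags RNA from its 3′ end. mt-Atp8 had 1040 UMIs over all barcodes, against 67363 for mt-Atp6. mt-Nd4l had 6570 UMIs, against 41167 for mt-Nd4. These are counts of 3′ tags and not levels per length, and for a joined RNA they do not measure separate transcripts.

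For the nuclear members, RefSeq promoter windows (GRCm38.p6, 250 bases before to 50 after each start) were matched for 68 of 83 genes, in 73 windows. Both strands were searched for the motifs of 4 factors tied to genes of respiration. The core of the NRF1 motif, CGCANGCG, was in 41.1% of member windows and in 8.21% of all 32851 windows. CCGGAAG, for GABPA, was in 23.3% of member windows and in 8.86% of all windows. AAGATGGCG, for YY1, was in 10.96% of member windows and 1.40% of all, and TCAAGGTCA, for the estrogen-related receptors, in 1.37% of member windows and 0.423% of all. The letters searched for GABPA and YY1 can share AAG. These matches describe letters in a window and are not evidence of binding. The bases upstream of the first annotated exon are shown for 3 nuclear members that were lower in TAM hashtags (values below), Atp5b (chr10:128083107-128083272, plus strand), Uqcrc1 (chr9:108936448-108936632, plus strand) and Ndufb6 (chr4:40279422-40279621, minus strand). For another such member, Atp5c1 (chr2:10080433-10080462, minus strand), only the NRF1 match nearest the start and its flanks are given. Capitals mark the match. The other 3 stretches hold none of the 4 motifs, but the windows reach further: that of Uqcrc1 holds an NRF1 match and that of Ndufb6 a GABPA match outside the bases shown.
Atp5b: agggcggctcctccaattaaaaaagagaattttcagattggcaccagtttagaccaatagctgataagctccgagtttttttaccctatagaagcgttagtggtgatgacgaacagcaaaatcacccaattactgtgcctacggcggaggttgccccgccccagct
Uqcrc1: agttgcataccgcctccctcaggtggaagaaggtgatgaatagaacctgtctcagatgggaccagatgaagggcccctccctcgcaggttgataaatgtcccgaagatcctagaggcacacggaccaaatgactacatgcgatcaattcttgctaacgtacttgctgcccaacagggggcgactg
Ndufb6: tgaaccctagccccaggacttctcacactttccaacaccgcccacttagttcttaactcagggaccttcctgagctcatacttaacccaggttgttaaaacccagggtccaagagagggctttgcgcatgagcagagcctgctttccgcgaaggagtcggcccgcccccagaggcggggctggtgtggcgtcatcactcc
Atp5c1: cgcctgagctcccgCGCACGCGcactgagt

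The pool held 9975 barcodes with 51821041 UMIs, 503 to 23185 per barcode. A single hashtag was called on 8055 barcodes (singlets), several on 1737 and none on 183. Of the singlets, 7903 passed the filters on genes, UMIs and mitochondrial share and fell into 8 clusters, made without the members among the clustering genes. The 6 clusters carrying microglial markers, 7475 cells in all, are called microglia-like here; each hashtag gave 577 to 895 of them and 2942232 to 4782926 UMIs. All 14 microglial markers, among them P2ry12 and Tmem119, were detected, in a median of 99.5% of these cells. Summed over the list they gave 32747 to 33437 UMIs per 1000000 in TAM hashtags, against 33490 to 36040 in oil hashtags. Of the markers of other cells, the 4 hemoglobin genes were at 0. The 5 neutrophil markers summed to 364 to 435 CPM (UMIs per 1000000) in TAM hashtags and 361 to 438 in oil hashtags, nearly all of it Csf3r, in 81.6% of cells, while S100a8, S100a9 and Retnlg were at 0. The 6 monocyte markers summed to 140 to 175 CPM in TAM hashtags and 149 to 220 in oil hashtags, mostly Lyz2, in 43.4% of cells, with Ly6c2 and Chil3 at 0. Of 6 brain macrophage markers Cd163 and Ms4a7 were at 0 and the list summed to 6.69 to 22.1 CPM in TAM hashtags and 3.34 to 13.9 in oil hashtags, led by Mrc1 in 3.61% of cells. Among markers of astrocytes Slc1a3 was in 66.5% of cells, while Gfap had 1 UMI.

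In microglia-like cells the 13 mitochondrial members together took 8836 of every 1000000 UMIs and the 83 nuclear members 7289, which is 1.21 mitochondrial UMIs per nuclear UMI (exact 95% interval 1.206 to 1.218, covering counting error only). The most counted members were all mitochondrial. Over all barcodes mt-Co3 had 85460 UMIs and mt-Co1 77596, both catalytic-core subunits of cytochrome c oxidase (complex IV). Cox4i1, a nuclear subunit of the same complex, led the nuclear members with 16206 UMIs. mt-Nd6, the one mitochondrial member on the minus strand, had 1081 UMIs. Whether reads were counted by strand is not given in the sources used here, so its reads and those of mt-Nd5 at their shared end may not be separable.

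Tissue forms of complex IV subunits were rare or not counted. Among the forms known from heart, muscle, lung or testis, Cox8b, Cox8c and the complex IV-associated Ndufa4l2 had 0 UMIs, Cox7b2 had 1, Cox4i2 had 2 and Cox7a1 had 26 over all barcodes. Cox6b2, known from testis, had 87 UMIs and Cox6a2, known from heart and muscle, had 180. Their widely expressed relatives were abundant, with 9455 UMIs for Cox8a, 5038 for Cox7a2, 7583 for Ndufa4, 6929 for Cox6b1 and 4771 for Cox6a1. With 0 UMIs in microglia-like cells, the count allows up to 0.0773 UMIs per 1000000 (3 UMIs). All 3 genes for the c-ring subunit of ATP synthase were counted, with 9940 UMIs for Atp5g2, 4585 for Atp5g1 and 2674 for Atp5g3. They code the same mature protein, and how the authors counted reads that match more than 1 gene is not stated, so their division is uncertain.

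Setting TAM against oil, the nuclear members took a slightly smaller share of UMIs in TAM hashtags and the mitochondrial members did not. The 83 nuclear members summed to 7312, 7227, 7156, 6983 and 6880 UMIs per 1000000 in TAM1 to TAM5, against 7241, 7544, 7586, 7382 and 7553 in Oil1 to Oil5. The means were 7112 ± 177 in TAM hashtags and 7461 ± 146 in oil hashtags (SD, n = 5 each). TAM2 to TAM5 lay below every oil hashtag, and TAM1 lay above Oil1 alone. These are shares of each hashtag's UMIs, so less RNA of these genes and more RNA of others cannot be told apart.

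The 13 mitochondrial members summed to 8933, 8771, 8900, 8938 and 10062 UMIs per 1000000 in TAM1 to TAM5, against 9040, 7939, 8458, 8469 and 8790 in Oil1 to Oil5. The means were 9121 ± 531 in TAM hashtags and 8539 ± 414 in oil hashtags (SD, n = 5 each). TAM5 was above every other hashtag and Oil2 below, and the remaining hashtags overlapped. Without TAM5 the TAM mean was 8885 ± 78.5 (SD, n = 4). TAM5 was the highest of the 10 hashtags in 10 of the 13 mitochondrial members, and Oil2 the lowest in 13 of 13.

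The ratio of the mitochondrial to the nuclear sum was 1.22, 1.21, 1.24, 1.28 and 1.46 in TAM1 to TAM5, against 1.25, 1.05, 1.12, 1.15 and 1.16 in Oil1 to Oil5. TAM4 and TAM5 exceeded all oil hashtags, and Oil1 lay within the TAM range. On the log2 scale the ratio averaged 0.36 ± 0.11 in TAM hashtags and 0.19 ± 0.09 in oil hashtags (SD, n = 5 each), a difference of 0.16, and of 0.12 without TAM5. With the hashtags numbered from 1 to 10, Oil1 to TAM5, and that number in a least-squares fit, the difference was 0.034. Every TAM number is above every oil number, so that fit separates number from treatment poorly, and no spread was computed for it. No p-value is given for these sums, because the members were chosen with results of these data known.

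**Figure D1:**
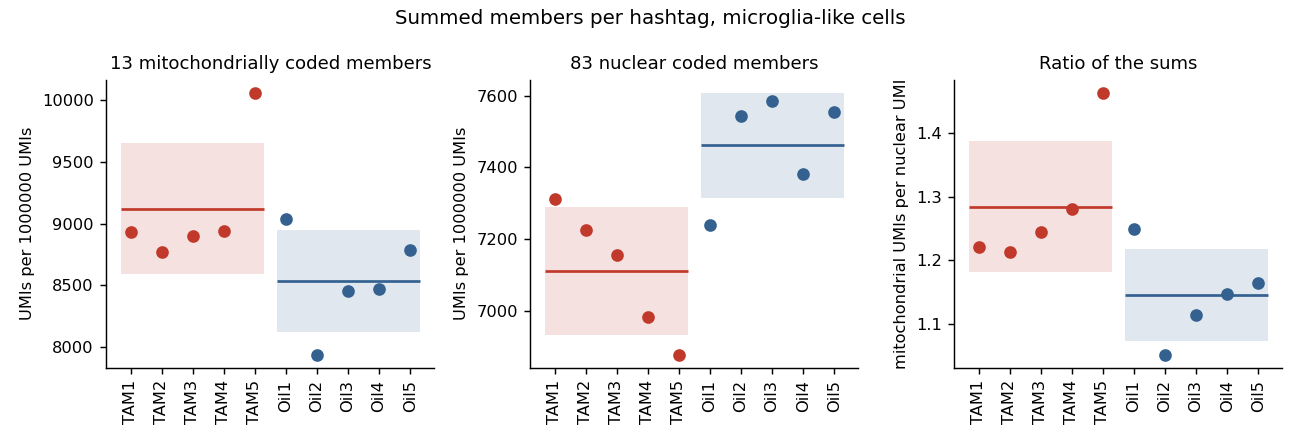
Summed UMIs of the 13 mitochondrially coded and the 83 nuclear coded members per 1000000 UMIs, and their ratio, for each hashtag of microglia-like cells (points; TAM red, oil blue). Lines and bands are the mean and SD of 5 hashtags. The nuclear sum of TAM2 to TAM5 lies below every oil hashtag, and TAM5 alone, at 10062, carries the high end of the mitochondrial sum.

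Other measures moved with treatment beside these sums. Immediate early genes, which are induced within minutes by stimulation and also by dissociation of tissue, had a mean log2 CPM of 4.50 ± 0.51 in TAM hashtags and 6.04 ± 0.71 in oil hashtags (SD, n = 5 each), without overlap. Malat1, a nuclear-retained RNA, took 2.17 to 2.41% of UMIs in TAM hashtags and 2.46 to 2.59% in oil hashtags. Cytosolic ribosomal protein genes took 4.60 to 4.89% of UMIs in TAM hashtags and 4.41 to 4.66% in oil hashtags. Of 12 cell cycle genes tested, 9 were called higher and 1 lower in TAM hashtags by the test described next (median log2 fold change 1.52), and their list summed to a mean of 213 CPM in TAM hashtags and 126 in oil hashtags. Median depth was 4914 to 5124 UMIs per cell in TAM hashtags and 4918.5 to 5103 in oil hashtags. The part of the immediate early, Malat1, ribosomal and cell cycle differences in the results on the members was not tested beyond the alternatives given with them.

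Gene by gene, the counts summed per hashtag were tested with edgeR's quasi-likelihood F test over 11168 genes, all 96 members among them. A gene was called at a Benjamini-Hochberg adjusted p below 0.05. Of all genes tested, 4.54% were called, 1.65% higher in TAM hashtags and 2.89% lower. Of the members, 0 were higher and 6 lower: 6 of 83 nuclear members and 0 of 13 mitochondrial members. At an unadjusted p below 0.05 there were 39 of 83 nuclear members and 1 of 13 mitochondrial members, mt-Co1, against 19.4% of all genes tested. The median log2 fold change (TAM over oil) was -0.12 over the nuclear members, 70 of them below 0, and 0.05 over the mitochondrial members, 12 of them above 0, while the median over all genes tested was 0.00. Without TAM5, 7 of the 13 mitochondrial members were above 0, and their median was 0.01. Under scaling by library size alone the median of all genes was 0.04, 58.6% of called genes were higher in place of 36.3%, and the called members were 5 lower and mt-Co1 higher.

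The 6 calls did not survive every setting. Without Oil1, Oil2 and Oil3, whose mean immediate early levels were the highest, edgeR called 0 of 96 members (26 at an unadjusted p below 0.05) and 7 of 11593 genes in all. With the mean immediate early level of each hashtag as a covariate it also called 0 members (9 at an unadjusted p below 0.05) and 68 of 11168 genes in all. Leaving out 1 hashtag gave 2 member calls without TAM3, 3 without TAM4, 2 without Oil3 and 4 to 9 without any other. Calls over all genes fell as well, from 507 to 274, 256 and 253 without TAM3, TAM4 and Oil3. They were 242 to 653 without any other hashtag. The nuclear median was -0.12 in the fit without Oil1, Oil2 and Oil3 and -0.10 with the immediate early covariate. The same number from 1 to 10 is higher in every TAM hashtag than in every oil hashtag, so a fit holding both separates them poorly. With it in the model, edgeR called 0 members (3 at an unadjusted p below 0.05) and 41 genes in all. The nuclear median was then -0.06, with 61 of 83 below 0, and 3 of 13 mitochondrial members were above 0. Each of the 6 calls was lost in 5 to 11 of the 16 settings that did not leave out a single hashtag.

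Complex V held 3 of the 6. Atp5b codes the catalytic beta subunit of ATP synthase (ENSMUSG00000025393, chr10:128083273-128090391, plus strand). Its CPM, here on the TMM-scaled library size, was 138, 144, 137, 135 and 137 in TAM1 to TAM5, against 156, 170, 156, 164 and 152 in Oil1 to Oil5. Every TAM hashtag lay below every oil hashtag. The log2 fold change was -0.21 ± 0.04 (approximate SE; adjusted p = 0.0141, edgeR), and the call held whichever hashtag was left out, but was lost in 6 of the 16 other settings. Atp5d codes the delta subunit of the central stalk (chr10:80138632-80145818). It had 106, 93.6, 93.3, 86.0 and 92.2 CPM in TAM1 to TAM5, against 111, 111, 115, 109 and 112 in Oil1 to Oil5. The groups did not overlap, and the log2 fold change was -0.25 ± 0.06 (adjusted p = 0.0188, edgeR; 0.0551 without Oil3). Atp5c1, which codes the gamma subunit of the same stalk, averaged 122 ± 3.59 CPM in TAM hashtags and 137 ± 6.38 in oil hashtags (SD, n = 5 each; log2 fold change -0.17, adjusted p = 0.0477, edgeR). Its groups did not overlap either, but the call was lost in 8 of 10 omissions of a single hashtag, all but those of TAM1 and Oil4, with an adjusted p of at most 0.103 (edgeR). The c-ring genes, which sit in the membrane part, were not called: Atp5g2, the most counted, averaged 195 ± 7.50 CPM in TAM hashtags and 196 ± 12.5 in oil hashtags. Outside the membrane part, too, some genes were not called. Atp5e, for the epsilon subunit, averaged 166 ± 6.62 CPM in TAM hashtags and 166 ± 6.46 in oil hashtags. Atp5a1, for the alpha subunit, averaged 182 ± 4.48 and 197 ± 8.86 CPM (adjusted p = 0.132, edgeR).

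Complex III held 2 of the 6, among 8 members of which all 8 had a log2 fold change below 0. Uqcrc1, a core protein of the matrix side of the complex (ENSMUSG00000025651, chr9:108936633-108949623), had 51.2, 52.1, 48.6, 50.1 and 51.5 CPM in TAM1 to TAM5, against 59.4, 60.1, 60.8, 60.7 and 59.7 in Oil1 to Oil5. The 2 groups were far apart relative to their spread, with a log2 fold change of -0.25 ± 0.05 (adjusted p = 0.0141, edgeR). Without TAM3 its adjusted p was 0.0505 (edgeR). The call was also lost in 7 of the 16 settings of other kinds, among them the DESeq2 Wald test and the largest cluster alone, where the log2 fold change was -0.03. Uqcrq, a small subunit that sits by cytochrome b, had 97.3, 97.3, 89.8, 86.8 and 101 CPM in TAM1 to TAM5, against 112, 124, 120, 106 and 102 in Oil1 to Oil5. The highest TAM value came just under the lowest oil value, and the log2 fold change was -0.26 ± 0.06 (adjusted p = 0.0294, edgeR). The call was lost without TAM3, TAM4, Oil2 or Oil3, with an adjusted p of at most 0.0898 (edgeR). At the other end Uqcrh, the hinge protein that docks cytochrome c1, had 139 to 152 CPM in TAM hashtags and 141 to 149 in oil hashtags.

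Complex I is the largest of the complexes, and 1 of the 37 nuclear members counted here as its subunits was called. Ndufb6, an accessory subunit of the membrane arm (chr4:40270591-40279421, minus strand), had 33.1, 31.3, 26.3, 24.1 and 24.97 CPM in TAM1 to TAM5, against 34.9, 33.3, 37.4, 37.4 and 37.7 in Oil1 to Oil5. All TAM values lay under the oil values, TAM1 narrowly, and the log2 fold change was -0.38 ± 0.09 (adjusted p = 0.0280, edgeR). The call was lost without TAM3, TAM4, TAM5, Oil3, Oil4 or Oil5, with an adjusted p of at most 0.0871 (edgeR). None of the 7 core subunits and none of the 8 assembly factors was called by edgeR, with 5 and 2 of them at an unadjusted p below 0.05 (19.4% of all genes tested). The assembly factors did not share a direction: 4 had a log2 fold change above 0, up to 0.34 for Ndufaf1, and 4 below.

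In complex IV none of 13 nuclear members was called by edgeR, with 4 of them at an unadjusted p below 0.05 (19.4% of all genes tested). Cox5b, a zinc-binding subunit of the matrix side, came nearest, with 88.3 ± 3.51 CPM in TAM hashtags and 102 ± 6.19 in oil hashtags (adjusted p = 0.0515, edgeR). Cox7c, a small membrane subunit, averaged 189 ± 6.21 CPM in TAM hashtags and 190 ± 7.96 in oil hashtags. On the mitochondrial side mt-Co1, the heme-bearing catalytic subunit of complex IV, had 1451, 1431, 1448, 1401 and 1574 CPM in TAM1 to TAM5, against 1445, 1265, 1267, 1330 and 1328 in Oil1 to Oil5. Oil1 lay inside the TAM range and the other 4 oil hashtags below it, and the log2 fold change of 0.14 ± 0.04 did not pass (adjusted p = 0.0772, edgeR).

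Counting hashtags rather than p-values, 11 of 83 nuclear members had every TAM hashtag below every oil hashtag, against 3.12% of all genes tested, and 0 members had every TAM hashtag above, against 2.12%. The 11 included the 6 called members, and Ndufa5, Ndufa7, Ndufa9 and Cox6b1.

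**Figure D2:**
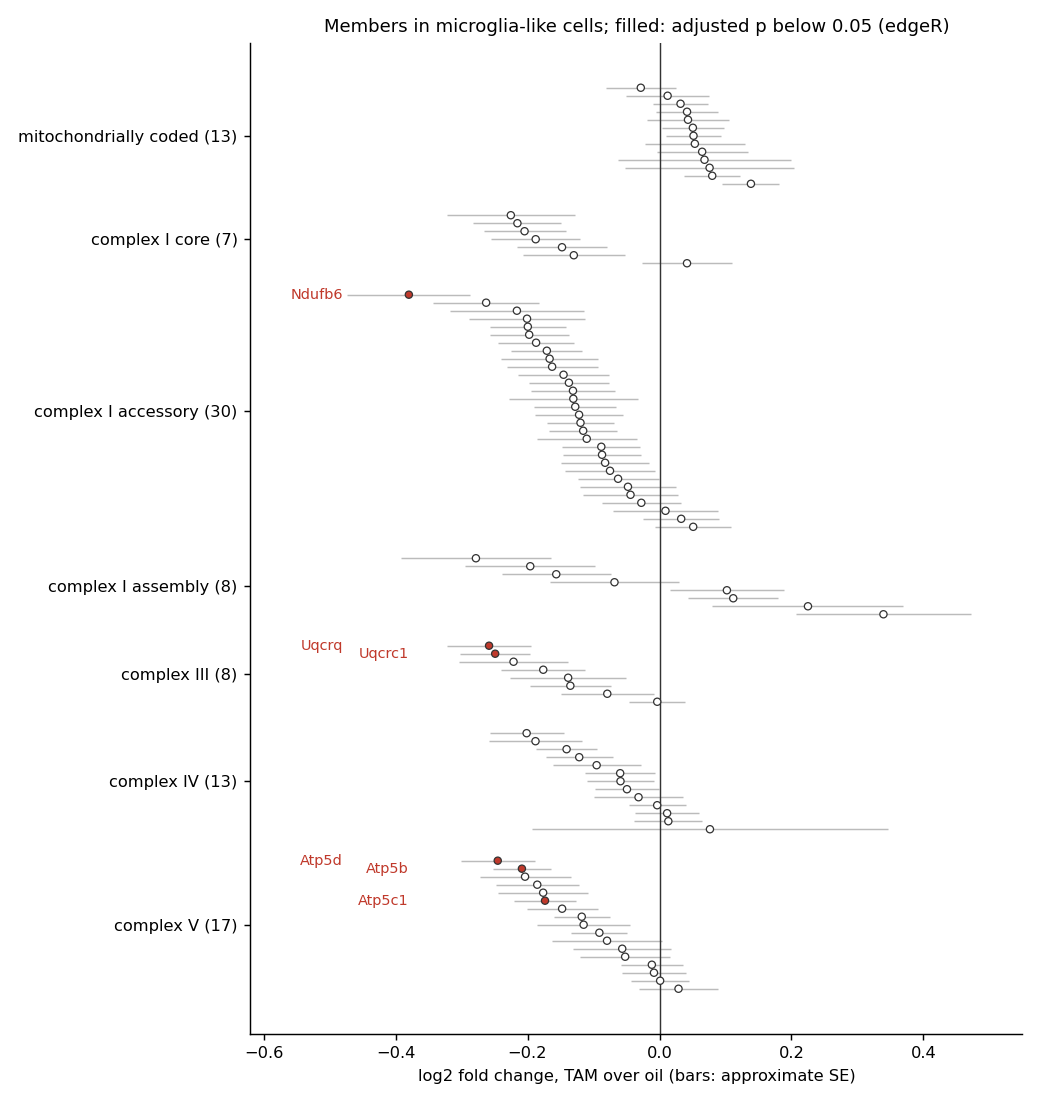
Log2 fold change (TAM over oil) of each of the 96 members in microglia-like cells by class, with approximate standard errors; filled red points passed the adjusted p of 0.05 in edgeR's test. Nuclear members of complexes I, III, IV and V lie mostly left of 0 (70 of 83), and 12 of 13 mitochondrial members lie right of it without passing the test (7 of 13 without TAM5).

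Lists around the respiratory chain were read against the same backgrounds of 1.65% called higher and 2.89% called lower. In complex II, which is wholly nuclear coded and shared with the tricarboxylic acid cycle, 1 of 7 genes was lower, Sdhb (log2 fold change -0.30, adjusted p = 0.0111, edgeR). In the cycle itself 1 of 17 was lower, Idh3g, a subunit of isocitrate dehydrogenase (-0.36, adjusted p = 0.0364, edgeR). Among 17 genes of electron carriers and nucleotide exchange 2 were lower, Slc25a5, which codes an ADP/ATP carrier of the inner membrane (-0.25), and Coq10b, a coenzyme Q binding protein (-0.53). Glycolysis, which feeds the chain, had 3 of 14 lower, Ldhb (-0.30), Aldoa (-0.34) and Gapdh (-0.20).

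The machinery that builds and maintains mitochondria gave few calls. Among 78 mitochondrial ribosomal protein genes 1 was lower and 60 had a log2 fold change below 0. By edgeR 0 genes were called among 24 for mitochondrial DNA and RNA maintenance, 30 assembly factors of complexes III to V, 18 import genes, 9 biogenesis regulators and 8 antioxidant genes. These lists held 2, 6, 4, 2 and 3 genes at an unadjusted p below 0.05, against 19.4% of all genes tested. Of 89 cytosolic ribosomal protein genes 1 was higher, and of 14 microglial markers 5 were lower (median log2 fold change -0.10). Immediate early genes were lower in 16 of 21 cases.

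Among the microglia-like clusters both sums were lowest in cluster 1 and highest in cluster 4, while in the shallowest cluster, number 6, the mitochondrial sum was high and the nuclear sum low. Cells of the largest cluster, number 2 (2796 cells, led by Nrxn3 and Lmo7), had 9890 mitochondrial and 8132 nuclear UMIs per 1000000, a ratio of 1.22. Cluster 1 (2485 cells, led by Cxcl9 and Esrrg) had the lowest sums of both kinds among the microglia-like clusters, with 7819 mitochondrial and 6292 nuclear UMIs per 1000000, a ratio of 1.24. Cluster 0, led by the immediate early genes Fos, Fosb and Egr1 (1742 cells), had 8261 and 7341, a ratio of 1.13. Pooled over hashtags, its mitochondrial sum was below that of all microglia-like cells and its nuclear sum slightly above. Within hashtags, each of the sums was above that of the other microglia-like cells in only 4 of 10. A cluster set against the other cells is a description and not a test, and the counts per treatment show how unevenly the hashtags filled them: cluster 0 held 119 TAM cells and 1623 oil cells.

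The small clusters 3 and 4 had higher sums of both kinds than clusters 0 to 2, and cluster 7 did not. Cluster 4, led by Spp1, Lgals3 and Lpl, genes known from activated and disease-associated microglia, held 204 cells with 12942 mitochondrial and 9259 nuclear UMIs per 1000000. Its ratio was 1.40 (exact 95% interval 1.364 to 1.432). Both sums were above those of the other microglia-like cells in 10 of 10 hashtags, and the ratio was in 9 of 10. The 13 mitochondrial members were 1.35 to 1.97 times as high in this cluster as in the other microglia-like cells, and 76 of 83 nuclear members were higher, with a median of 1.29 times. The nuclear range went from 0.650 times for Cox7a2l, a factor of respiratory supercomplexes, to 4.84 times for Cox6a2.

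Cox6a2, the heart and skeletal muscle form of a complex IV subunit, was the rarest member. It had 18 UMIs in 16 of the 204 cells of cluster 4 (7.84%), or 14.7 UMIs per 1000000 (exact 95% Poisson interval 8.71 to 23.2), against 3.03 in the other microglia-like cells. The share of cells with a Cox6a2 UMI was 1.09% in cluster 0, 1.49% in cluster 1, 1.29% in cluster 2, 2.46% in cluster 3 (3 of 122 cells) and 3.97% in cluster 7 (5 of 126 cells). In cluster 7 that was 7.57 UMIs per 1000000 (2.46 to 17.7), an interval that overlaps that of cluster 4. Median depth was 5754 UMIs in cluster 4, 5628 in cluster 1 and 5139 in cluster 7. In other clusterings Cox6a2 was among the 10 leading genes of a small cluster led by Il12b and Lgals3, apart from the cluster led by Spp1. That small cluster held 11 cells without a mitochondrial limit and 12 with stricter hashtag assignment. Whether a few such cells carry the level in cluster 4 was not tested. By treatment Cox6a2 averaged 3.50 ± 0.97 CPM in TAM hashtags and 3.27 ± 1.02 in oil hashtags, with overlapping values.

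Among the 6 microglia-like clusters, the nuclear sums of TAM and oil hashtags overlapped in clusters 0, 1, 2, 3 and 7 but not in cluster 4. Cluster 4 was picked for this after the values were seen. Its nuclear sum was 8555, 9517, 8219, 8880 and 8197 UMIs per 1000000 in TAM1 to TAM5, against 9845, 10618, 10397, 10116 and 10297 in Oil1 to Oil5. The groups did not overlap, although each value rests on 19 to 32 TAM cells or 14 to 20 oil cells. The mitochondrial sum in the same cells averaged 12356 ± 1594 in TAM hashtags and 14047 ± 1773 in oil hashtags (SD, n = 5 each), with overlap.

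Dividing cells, cluster 3 led by Mki67 and Top2a (122 cells, 106 from TAM and 16 from oil hashtags), had 10941 mitochondrial and 8659 nuclear UMIs per 1000000, a ratio of 1.26. With cells pooled, all 13 mitochondrial and 69 of 83 nuclear members were higher there than in the other microglia-like cells, with medians of 1.17 times for both kinds. Within hashtags, each of the sums was above that of the other microglia-like cells in 8 of 10, and the ratio was in 5 of 10. Oil hashtags held 1 to 8 of these cells each. Interferon-responding cells, cluster 7 led by Ifit3 (126 cells), had 9309 and 7301, a ratio of 1.28, and medians of 1.05 times for mitochondrial and 0.988 times for nuclear members. In 52 cells of cluster 5, led by the class II genes H2-Eb1 and H2-Aa and given no name, the sums were 11506 and 11068, a ratio of 1.04.

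With cells pooled by treatment, the ratio was higher in TAM cells in each of the 6 microglia-like clusters. It was 1.27 in TAM cells and 1.14 in oil cells of cluster 2, 1.27 and 1.18 in cluster 1, 1.26 and 1.12 in cluster 0, 1.28 and 1.18 in cluster 3, 1.43 and 1.36 in cluster 4, and 1.33 and 1.19 in cluster 7. Over hashtags of cluster 2, with 270 to 398 TAM cells and 79 to 425 oil cells each, the ratio spanned 1.21 to 1.48 in TAM hashtags and 1.07 to 1.23 in oil hashtags, which overlap. In cluster 0, TAM1 held 83 of the 119 TAM cells at 1.13, inside the oil range of 1.03 to 1.22. TAM2 to TAM5, with 23, 4, 4 and 5 cells, stood at 1.41, 2.04, 2.09 and 1.54. In cluster 4 the hashtags averaged 1.42 ± 0.15 for TAM and 1.37 ± 0.21 for oil (SD, n = 5 each). Cluster 3 had 1 to 8 cells per oil hashtag. The clusters share the same 10 hashtags and are not separate replicates. In the unnamed clusters the pooled ratio had the other order, with 1.01 in TAM cells and 1.12 in oil cells of cluster 5, and 9.63 and 11.8 in cluster 6.

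**Figure D3:**
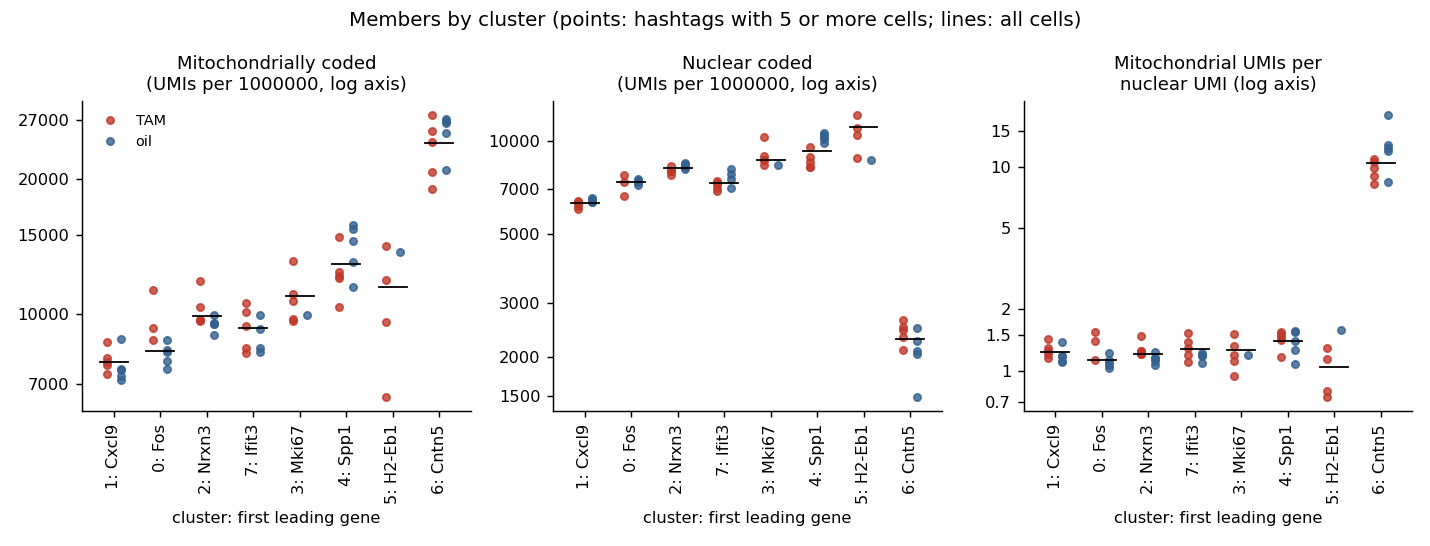
Mitochondrial and nuclear members (UMIs per 1000000) and their ratio by cluster, each named by its first leading gene, on log axes. Points are hashtags with at least 5 cells in the cluster (TAM red and left, oil blue and right) and black lines are all cells of the cluster. Cluster 6 has the highest mitochondrial and the lowest nuclear sum, a ratio of 10.5, while the other 7 clusters lie between 1.04 and 1.40.

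Cluster 6 stood apart from all of these. Its 376 cells, 214 from TAM and 162 from oil hashtags, had a median of 1508.5 UMIs and gave 24021 mitochondrial but only 2295 nuclear UMIs per 1000000, a ratio of 10.5 (exact 95% interval 9.91 to 11.1). In 10 of 10 hashtags the mitochondrial sum was above, and the nuclear sum below, that of the microglia-like cells. It was led by Cntn5, and 13 of 14 microglial markers were each in at least 25% of its cells. No microglial marker was among its 10 leading genes, so with its low depth it was given no cell type name. Cytosolic ribosomal protein genes took 0.725% of its UMIs, against 4.61% in microglia-like cells, and Malat1 2.69%, against 2.38%.

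Not every nuclear member was low in cluster 6. Relative to microglia-like cells, mitochondrial members were at 1.41 times (mt-Atp8, 95% counting interval 0.805 to 2.29) to 3.04 times (mt-Nd6, 2.12 to 4.23), with a median of 2.73. Nuclear members had a median of 0.266 times, and 4 of 83 were above 1. Ndufs1, the largest core subunit of complex I, reached 1.32 times (95% counting interval 0.937 to 1.80) and Ndufaf7, a complex I assembly factor, 1.28 times (0.941 to 1.69). Ndufs4, an accessory subunit whose loss causes Leigh-like disease in mice, was at 1.01 times (0.781 to 1.28) and Ndufaf5 at 1.07 times, on 6 UMIs. All 4 intervals include 1. At the low end Atp5e, the epsilon subunit of ATP synthase, was at 0.0682 times, with 11.3 UMIs per 1000000 in cluster 6 against 165 in microglia-like cells.

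Nuclear members with longer genes tended to keep more of their level in cluster 6. Exceptions were the assembly factors Ndufaf7 (10.9 kb, 1.28 times), Ndufaf1 (7.38 kb, 0.873 times, on 6 UMIs) and Ndufaf4 (6.92 kb, 0.803 times, on 17 UMIs). The assembly factors Ndufaf3 and Ndufaf8 were at 0.242 and 0.115 times. Over the 83 nuclear members, the Spearman correlation of genomic span with the level in cluster 6 relative to microglia-like cells was 0.61, a description over genes counted in the same libraries, and over 11150 nuclear genes tested it was 0.54. Summed UMIs of the 26 members whose genes span under 5 kb were at 0.203 times their level in microglia-like cells, those of 32 members of 5 to 10 kb at 0.280, of 14 members of 10 to 20 kb at 0.376 and of 9 members of 20 to 50 kb at 0.658. The 2 members beyond 50 kb, Ndufs4 and Ndufaf2, were together at 0.971. For all genes tested the same spans gave 0.341, 0.678, 0.781, 0.976 and 1.41, so the members were lower than other genes in each span group. Whether intronic reads were counted is not given in the sources used here.

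**Figure D4:**
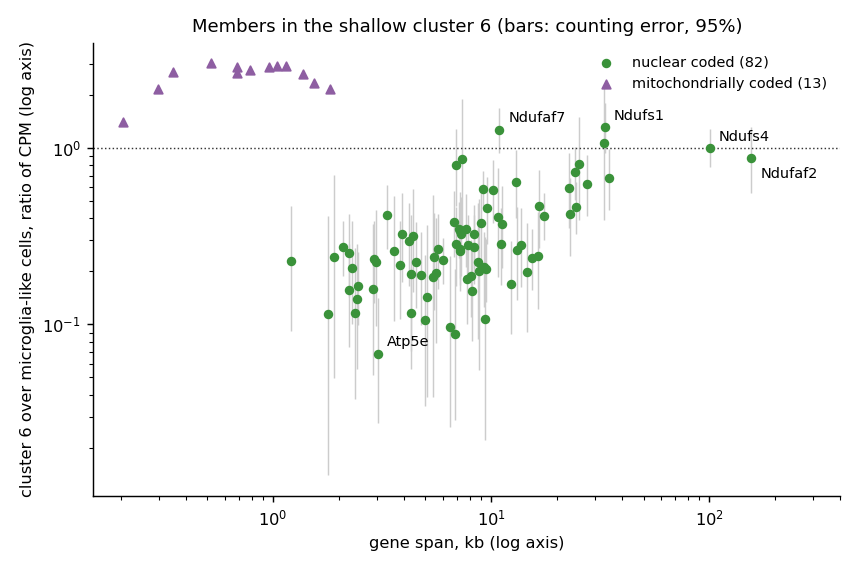
Level of each member in cluster 6 relative to microglia-like cells (ratio of UMIs per 1000000, log axis) against the genomic span of the gene (kb, log axis); bars are 95% counting intervals and the dotted line marks equal levels. Nuclear members (82 with a UMI in cluster 6, while Cox6a2 had 0) tend to climb with span to about 1 for the longest genes, with exceptions such as Ndufaf7. The 13 mitochondrial members lie at 1.41 to 3.04 whatever their span.

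Depth gave the same picture over all singlets, with no filter on depth or mitochondrial share. Barcodes were binned by UMIs of genes that are not members. The ratio was 20.4 in 161 barcodes with fewer than 1000 such UMIs, 8.05 in 349 barcodes with at least 1000 and fewer than 2000, 1.69 in 301 from 2000 to under 3000 and 1.24 in 1318 from 3000 to under 4000. From 4000 UMIs upwards it was level, at 1.21, 1.20, 1.20 and 1.23 in the remaining 4 bins. Both sides moved: the shallowest bin held 46515 mitochondrial and 2282 nuclear UMIs per 1000000, against 9049 and 7449 in the bin that starts at 4000.

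Cluster 6 made up 297 of the 349 barcodes with at least 1000 and fewer than 2000 such UMIs. In the 47 microglia-like cells of that bin the ratio was 1.92 (exact 95% interval 1.73 to 2.12), in 236 microglia-like cells of the next bin it was 1.32, and from 3000 UMIs upwards it lay between 1.20 and 1.23. In these shallow microglia-like cells the nuclear sum stayed near the level of deeper cells, at 7336 and 7866 UMIs per 1000000, and the mitochondrial sum was higher, at 14059 and 10420. Apart from the depth bins, 16 singlets picked for more than 10% mitochondrial UMIs had a ratio of 53.8 on 30 nuclear UMIs. That choice by itself makes the ratio high.

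**Figure D5:**
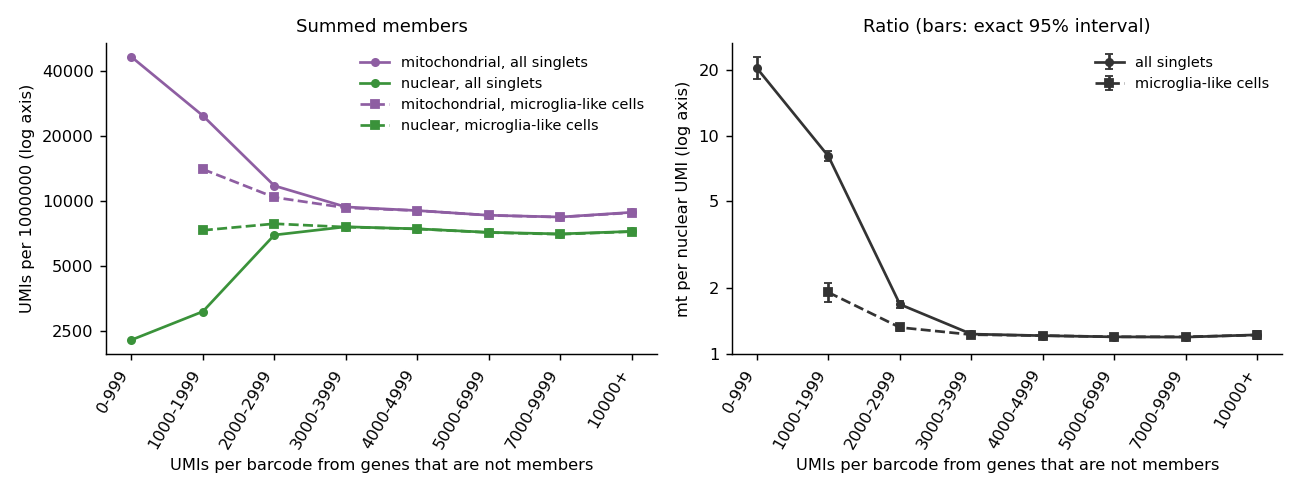
Mitochondrial and nuclear members (UMIs per 1000000) and their ratio by depth, counted as UMIs of genes that are not members, for all singlets (solid) and for microglia-like cells (dashed), on log axes; bars are exact 95% intervals of the ratio. The ratio is 20.4 in the shallowest bin of all singlets and between 1.20 and 1.23 from 4000 UMIs upwards.

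The difference between treatments was looked at in 3 depth groups of microglia-like cells, and the mean ratio was higher in TAM hashtags in each. Under 4000 UMIs the ratio averaged 1.33 ± 0.07 in TAM hashtags and 1.18 ± 0.14 in oil hashtags (SD, n = 5 each), with overlap. From 4000 to under 5000 UMIs it averaged 1.30 ± 0.12 in TAM hashtags and 1.14 ± 0.03 in oil hashtags, and the lowest TAM hashtag, at 1.20, was above the highest oil hashtag, at 1.17. From 5000 UMIs upwards it averaged 1.26 ± 0.11 in TAM hashtags and 1.14 ± 0.08 in oil hashtags, again with overlap. In finer bins, with cells pooled by treatment, the order was the other way at both ends, where cells were few. With 1000 to under 2000 UMIs the ratio was 1.80 in 27 TAM cells and 2.11 in 20 oil cells, and from 10000 UMIs upwards it was 1.22 in 34 TAM cells and 1.23 in 19 oil cells. The exact 95% intervals of TAM and oil overlapped in both bins. In the 5 bins between, the ratio was higher in TAM cells.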

How the data were processed

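The authors deposited raw UMI counts of genes and hashtags in 1 matrix; its header names Cell Ranger 7.0.0, and the submitters' processing notes name mm10. How barcodes were called, which annotation was used and how intronic, shared or antisense reads were counted is not stated. The members and lists were chosen with earlier results of these data known.

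Hashtags were assigned with HTODemux (Seurat 5.3.0, quantile 0.99); barcodes with several hashtags were left out as doublets, and an expected 193 doublets within a hashtag remain. Cells needed 500 genes, 1000 UMIs and at most 10% mitochondrial UMIs. Clusters (scanpy 1.11.5, 2000 variable genes without members and sex-linked genes, 30 components, 15 neighbours, Leiden resolution 0.5) were called microglia-like from markers. Raw counts were summed per hashtag and tested with edgeR 4.0.16 (TMM, filterByExpr, quasi-likelihood F test, Benjamini-Hochberg over all genes tested); DESeq2 1.42.0 was an alternative. The fits were checked on simulated counts. Intervals are exact and cover counting error only. Other alternatives changed scaling, filters, cells, clustering, hashtag assignment, depth and covariates, and left out each hashtag in turn.

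Named were the mitochondrial members, per nuclear class the 2 most counted and the 2 of smallest p, the called members, paralogs of a subunit, and of each other list up to 3 called genes and the most counted one. Atp5e and the genes named by position in a range, in the cluster or depth results, or for not overlapping were chosen after their values were seen.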

Additional observations from a re-analysis of the deposited data

Results flagged for a closer look

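Single hashtags stood far from the other 4 of their treatment in 11 of 98 sets of 5 values examined; chance gives about 1 in 20 such sets, and the mitochondrial members share their hashtags, so these are not separate events. TAM5 accounts for 9 of them. Its mitochondrial sum was 10062 UMIs per 1000000, against 8771 to 8938 in the other TAM hashtags, and its mitochondrial to nuclear ratio was 1.46, against 1.21 to 1.28. Among single genes, TAM5 had 1574 CPM of mt-Co1, 1276 of mt-Co2, 1701 of mt-Co3, 1361 of mt-Atp6, 913 of mt-Nd1, 838 of mt-Nd4 and 23.6 of mt-Nd6, each above the other TAM hashtags. Oil2 had 534 CPM of mt-Nd2, against 629 to 652 in the other oil hashtags. Oil1 had 162 CPM of Cox7a2l, against 188 to 197 in the other oil hashtags.

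Barcodes outside the comparison also differed. The ratio was 1.49 (exact 95% interval 1.472 to 1.498) in 1737 barcodes with several hashtags, at a median of 5750 UMIs. It was 2.94 (2.80 to 3.09) in 183 barcodes without a hashtag, at a median of 1455 UMIs. Neither set was filtered on depth or mitochondrial share. In all singlets, likewise unfiltered, the ratio was 1.28, and in the filtered microglia-like cells it was 1.21.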

How the results depend on the processing

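The count of called members depended on the setting. It was 6 in the fit as reported. It was 0 in 4 settings: without Oil1, Oil2 and Oil3, with the immediate early mean of each hashtag in the model, with its number from 1 to 10 in the model, and in the largest cluster alone (26, 9, 3 and 13 members at an unadjusted p below 0.05, edgeR). These 4 settings called 7, 68, 41 and 41 genes in all, against 507 in the fit as reported. The count of members was 1 without the immediate early cluster (150 genes in all) and 2 with cells thinned to 2000 UMIs (257 genes in all). Leaving out single hashtags gave 2 to 9, with 2 without TAM3, 2 without Oil3 and 3 without TAM4 (274, 253 and 256 genes in all). The DESeq2 Wald test gave 5, of which mt-Co1 was higher. With the hashtag number as a replicate block 12 members were called, 11 lower and mt-Co1 higher, and 878 genes in all. Whether the numbers pair the samples is not stated in the labels. The deviations of same-numbered hashtags correlated at 0.34, 0.18, 0.065, 0.13 and 0.12, and only hashtags 1 and 2 correlated best with their own number. These values do not settle it. The difference of the log2 ratio between TAM and oil, 0.16, kept its direction in the settings run for it, with 0.12 to 0.20 when single hashtags were left out. Among 3 settings added after seeing the data, fitted by least squares over hashtags, it was 0.16 with the replicate block, 0.11 with the immediate early mean and 0.034 with the hashtag's number in the model. No spread was computed for these fits, and the immediate early mean and the number each separate poorly from treatment. The mitochondrial median log2 fold change was 0.05 as reported, 0.01 without TAM5 (7 of 13 above 0), 0.02 without Oil2 (9 of 13), 0.00 without the immediate early cluster (7 of 13) and -0.03 with the hashtag's number in the model (3 of 13), where the nuclear median was -0.06. The mean log2 ratio of cluster 6 was 3.45 and 3.06 with cells thinned to 2000 UMIs, which left 71 of its cells. The log2 ratio of barcodes under 2000 UMIs less that of 4000 and more was 3.11, and 3.73 in barcodes without a hashtag. The causes were not tested. Depth limits the rarest members, such as Cox6a2, more than the mitochondrial ones.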
